A study of Mus musculus with 14 samples.

Results

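The CCN genes encode a family of secreted matricellular proteins, and 5 of them (Ccn1 to Ccn5) were followed here among 19937 genes measured. They were chosen by name, which included the older symbols Cyr61 (Ccn1), Ctgf (Ccn2), Nov (Ccn3), Wisp1 (Ccn4) and Wisp2 (Ccn5), and not by their values. Each was named by 1 probe set, and all 5 had a value on every array. Left ventricles (LV) of male mice were profiled on 14 Affymetrix mouse ST 1.0 arrays, 1 per mouse, at 3 weeks after surgery. WT mice were C57BL/6 from a commercial breeder, and CXCR5-/- mice lacked the chemokine receptor CXCR5 in all tissues on a C57BL/6 background. The knockout allele was made in embryonic stem cells of another mouse strain by putting a neomycin resistance gene in place of the Cxcr5 coding region, and the line was then backcrossed to C57BL/6. Aortic banding (AB) was a ligature that narrowed the ascending aorta, and Sham mice were operated without it. Each genotype had 3 Sham and 4 AB mice, so that genotype and operation made 4 groups. The sources used here do not state their ages. In the methods, banded mice of either genotype entered the study only when the flow velocity across the band was above a set limit.

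CCN proteins are matricellular, meaning that they sit in the extracellular matrix and act on cells, chiefly through integrins and heparan sulfate proteoglycans, more than they bear load. Ccn1 and Ccn2 are classical targets of the YAP and TEAD transcription factors, which respond to mechanical load, and Ccn2, long known as connective tissue growth factor, is also a target of TGF-beta signalling and a common marker of cardiac fibrosis. Ccn4 was first described as a gene induced by Wnt1, Ccn3 is often described as opposing Ccn2, and Ccn5, which lacks the C-terminal module of the others, has been described as restraining fibrosis and smooth muscle growth.

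The promoter of Ccn1 is shown because, of the 5 members, only Ccn1 had an entry among the promoter sequences used here. The promoters of Ccn2 to Ccn5 were thus not examined. In the RefSeq table of GRCm38.p6 it covers the 250 bases before the start of Ccn1 on the minus strand, chr3:145649986-145650235, and it is written 5′ to 3′ with the TEAD core motif CATTCC in capitals.
Ccn1: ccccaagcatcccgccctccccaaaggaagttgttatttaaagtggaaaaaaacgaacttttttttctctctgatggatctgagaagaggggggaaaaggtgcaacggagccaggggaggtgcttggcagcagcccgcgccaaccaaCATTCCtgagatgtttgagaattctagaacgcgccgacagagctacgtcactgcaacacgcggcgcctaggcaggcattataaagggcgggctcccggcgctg
The motif CATTCC, or its reverse complement GGAATG, occurred 1 time, at position -103 counted from the start of the gene, and it occurs in 12.64% of the 32851 promoters in the table. The core of the cyclic AMP response element (TGACG or CGTCA) occurred 1 time, at -58, and is found in 17.77% of promoters. A TATA box motif (TATAAA or TTTATA) lay at -25 and is found in 12.37%. The SMAD element CAGAC (or GTCTG), found in 42.19% of promoters, had 0 matches in this window. These matches describe the letters of the sequence, and binding was not measured. The 5 genes lie on chromosomes 3 (Ccn1), 10 (Ccn2), 15 (Ccn3 and Ccn4) and 2 (Ccn5), and thus none is on chromosome 9 with Cxcr5.

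The log2 values were compared in 1 limma fit of the 4 group means, with adjusted p values (Benjamini-Hochberg, over all genes) under 0.05 called as passed. Array medians lay between 5.19 and 5.30, and correlations between arrays ranged from 0.975 to 0.993. The Cxcr5 probe set split the arrays by genotype label, being higher on the 7 arrays labelled CXCR5-/- (3.85 to 4.47) than on the 7 WT arrays (3.03 to 3.30). Its position relative to the replaced part of the gene is unknown. The direction of this difference is thus unexplained, and it does not show the loss of the receptor. All 15 cardiomyocyte markers had mean levels between the 98.9 and 99.96 percentiles of all probe sets. Myl7, the atrial myosin light chain, was high on 3 Sham arrays (WT Sham replicate 1 at 9.09, and CXCR5-/- Sham replicates 1 and 2 at 9.68 and 8.82) and at 5.65 to 7.49 on the others, so results are also given without these 3 arrays, which leaves CXCR5-/- Sham with 1 array that is assumed to vary like the other groups. These 3 arrays were chosen by Myl7 alone. By the mean of 8 atrial markers, CXCR5-/- Sham replicate 1 was highest (7.60), followed by CXCR5-/- AB replicate 4 (7.54), which was kept. CXCR5-/- Sham replicate 2 (7.30) and WT Sham replicate 1 (7.25) came next. As whole ventricle was measured, more cells of a type and more RNA per cell cannot be told apart.

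AB raised 4 of the 5 CCN genes in WT hearts, namely Ccn1, Ccn2, Ccn4 and Ccn5, and 3 of them in CXCR5-/- hearts, where Ccn4 had a smaller difference that did not pass. The share of all genes that passed as higher was 5.10% in WT and 8.28% in CXCR5-/- hearts. Ccn2 had the largest increase of the family in both genotypes, 3.13-fold in WT and 4.12-fold in CXCR5-/-. None of the 5 genes passed between the genotypes after AB or after Sham, nor in the difference of the AB responses.

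**Figure D1:**
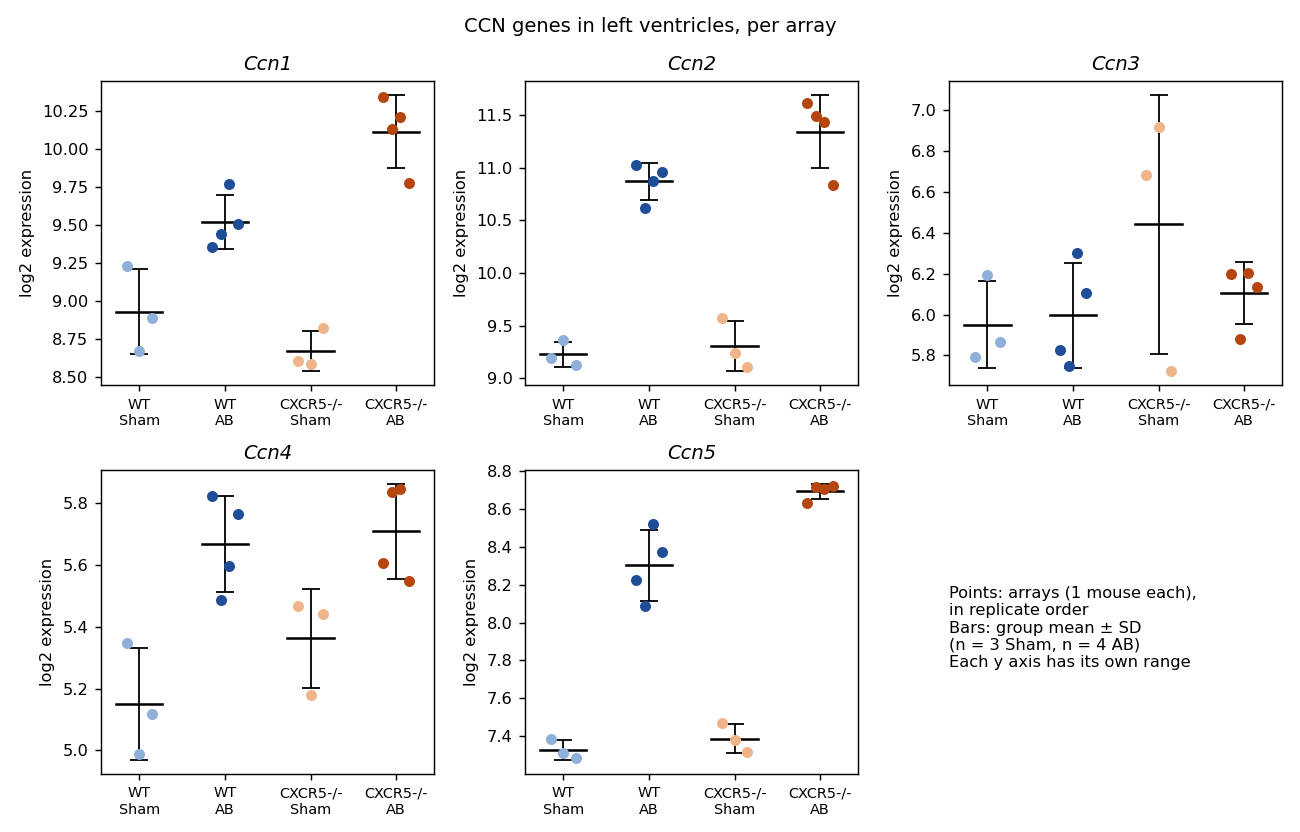
Log2 expression of each CCN gene (y axis, with its own range per panel) on each array, by group (x axis), with the group mean and SD. For Ccn1, Ccn2, Ccn4 and Ccn5 the AB points lie above the Sham points within each genotype, and for Ccn3 they overlap.

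Ccn2 is a strong inducer of matrix production that fibroblasts and stressed cardiomyocytes secrete. Its log2 level was 9.19, 9.36 and 9.13 on the WT Sham arrays and 11.03, 10.62, 10.88 and 10.96 on the WT AB arrays. It was 9.57, 9.24 and 9.11 on the CXCR5-/- Sham arrays and 11.61, 11.50, 11.44 and 10.83 on the CXCR5-/- AB arrays. Every AB array lay above every Sham array, by more than 1 log2 unit. The increase was 1.64 (SE 0.161, adjusted p = 6.77e-06) in WT and 2.04 (SE 0.161, adjusted p = 3.41e-07) in CXCR5-/- hearts, which ranked 27 and 21 among the increases of all genes. Non-overlapping groups with AB higher were seen for 9.39% of all genes in WT and 13.7% in CXCR5-/-. In an exact two-sided permutation test both responses reached p = 0.0286, the smallest that 3 against 4 arrays allow. No array left out in turn ended either call, and the increases then ranged from 1.59 to 1.73 in WT and from 1.94 to 2.21 in CXCR5-/- hearts. Without the 3 arrays with high Myl7 they were 1.63 and 2.24.

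Ccn5 has been described as a restraint on fibroblast and smooth muscle growth. Its log2 level was 7.38, 7.31 and 7.28 in WT Sham and 8.23, 8.09, 8.52 and 8.37 in WT AB. In CXCR5-/- mice it was 7.47, 7.38 and 7.31 after Sham and 8.63, 8.71, 8.71 and 8.72 after AB. The Sham groups overlapped each other, the AB groups did not, and both AB groups lay above all Sham arrays. Ccn5 rose by 0.98 (1.97-fold, SE 0.0975, adjusted p = 7.90e-06) in WT and by 1.31 (2.47-fold, SE 0.0975, adjusted p = 1.94e-07) in CXCR5-/- hearts, and both calls held whichever array was left out. The CXCR5-/- AB arrays had the smallest spread of its 4 groups (8.69 ± 0.0413, SD, n = 4), and the WT AB arrays the largest (8.30 ± 0.186, SD, n = 4).

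Ccn1 supports cell adhesion and vessel growth and is induced quickly by growth factors and stretch. Its log2 level was 9.23, 8.67 and 8.89 in WT Sham and 9.36, 9.44, 9.77 and 9.51 in WT AB. In CXCR5-/- mice it was 8.60, 8.59 and 8.82 after Sham and 10.34, 10.13, 10.21 and 9.78 after AB. Both AB groups lay above the Sham group of their genotype, and the highest WT Sham array (9.23) came close to the lowest WT AB array (9.36). The increase was 0.59 (1.50-fold, SE 0.145, adjusted p = 0.0146) in WT and 1.44 (2.72-fold, SE 0.145, adjusted p = 4.05e-06) in CXCR5-/- hearts. The WT call rested on single Sham arrays, since the increase was 0.46 (adjusted p = 0.110) without WT Sham replicate 2 and 0.57 (adjusted p = 0.0673) without replicate 3. In CXCR5-/- hearts the increase stayed between 1.37 and 1.56 with each array left out, and all those fits passed.

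Ccn4 promotes fibroblast growth and matrix production. Its log2 level was 5.35, 4.99 and 5.12 in WT Sham and 5.83, 5.49, 5.60 and 5.76 in WT AB, and these groups did not overlap. In CXCR5-/- mice it was 5.47, 5.18 and 5.44 after Sham and 5.61, 5.84, 5.85 and 5.55 after AB, again without overlap, the nearest arrays of the 2 groups being at 5.47 and 5.55. Ccn4 rose by 0.52 (1.43-fold, SE 0.119, adjusted p = 0.00951) in WT hearts. This was 0.44 (adjusted p = 0.0725) without WT Sham replicate 2. In CXCR5-/- hearts the difference was 0.35 (1.27-fold, SE 0.119, adjusted p = 0.0612), on the other side of the threshold but near it, and the exact two-sided permutation p was 0.0571. That difference passed with significance analysis of microarrays, the test named in the study's methods (q = 0.0224), and with the replicate number as a block (0.36, adjusted p = 0.0452). Without the 3 arrays with high Myl7 it was 0.27 (adjusted p = 0.490).

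Ccn3, which acts against Ccn2 in several tissues, did not share the pattern. Its log2 level was 5.79, 6.19 and 5.87 in WT Sham, and 5.83, 5.75, 6.30 and 6.11 in WT AB. In CXCR5-/- mice it was 6.68, 6.92 and 5.72 after Sham and 6.20, 5.88, 6.20 and 6.14 after AB. The groups overlapped within each genotype, and the CXCR5-/- Sham arrays held both the highest and the lowest value of all 14. The AB difference was 0.05 (95% interval -0.40 to 0.49, adjusted p = 0.943) in WT and -0.34 (95% interval -0.78 to 0.11, adjusted p = 0.358) in CXCR5-/- hearts. The 2 high arrays, CXCR5-/- Sham replicates 1 and 2, were also among the 3 with high Myl7, while WT Sham replicate 1, the other one, had a low Ccn3 level. Without these 3 arrays the difference turned to 0.38 (adjusted p = 0.411) in CXCR5-/- and to -0.03 (adjusted p = 0.937) in WT hearts. Without CXCR5-/- Sham replicate 3 alone it was -0.70 (adjusted p = 0.0107). The direction of Ccn3 with AB in CXCR5-/- hearts thus depended on which Sham arrays were used, and the part of atrial tissue in it was not tested.

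**Figure D2:**
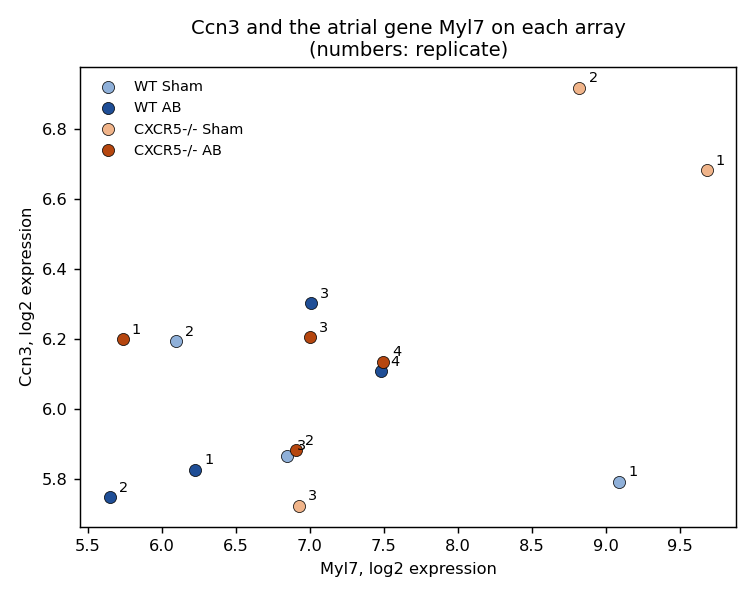
Log2 expression of Ccn3 (y axis) against that of the atrial gene Myl7 (x axis), with 1 point per array, coloured by group and numbered by replicate. CXCR5-/- Sham replicates 1 and 2 are highest in Ccn3 and high in Myl7, and WT Sham replicate 1 is high in Myl7 with Ccn3 at 5.79.

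Ccn6, the remaining gene of the family and no member of the group followed here, did not pass in any comparison. Its level was 4.27 to 4.93 over all 14 arrays, at the 39.1 percentile of all probe sets, with AB differences of 0.12 (adjusted p = 0.656) in WT and -0.16 (adjusted p = 0.493) in CXCR5-/- hearts.

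To ask whether the lack of CXCR5 altered the response, the AB response in CXCR5-/- mice was set against that in WT mice. Of 19937 genes, 0 passed for this difference in limma (0% of genes), and 574 had an unadjusted p under 0.05 (2.88%). That is less than the share of 0.05 that chance alone would give if no gene differed. The smallest limma adjusted p of any gene was 0.804. In any data some gene holds the fourth smallest p, and here it was Ccn1. Its response was larger in mice labelled CXCR5-/- by 0.86 on the log2 scale (SE 0.205, 95% interval 0.42 to 1.29, unadjusted p = 6.19e-04, adjusted p = 0.9998), and this was 0.55 without the 3 arrays with high Myl7. Leaving out each array in turn gave 0.71 to 0.98. Ccn5 also had a larger response, by 0.33 (SE 0.138, 95% interval 0.04 to 0.62, unadjusted p = 0.0281), and Ccn2 differed by 0.40 with an interval that held 0 (-0.08 to 0.88). The values for Ccn4 (-0.17, 95% interval -0.52 to 0.18) and Ccn3 (-0.38, 95% interval -1.01 to 0.25) lay in the other direction with intervals that held 0. None of the 5 passed after adjustment, and limma gave an adjusted p of 0.9998 for each.

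After AB, Ccn1 was higher on all 4 arrays labelled CXCR5-/- (10.1 ± 0.241, SD, n = 4) than on all 4 WT arrays (9.52 ± 0.180, SD, n = 4), a difference of 0.60 (1.51-fold, SE 0.134, unadjusted p = 3.46e-04, adjusted p = 0.150). Ccn5 was likewise higher on every array labelled CXCR5-/-, by 0.39 (1.31-fold, SE 0.0903, unadjusted p = 4.42e-04, adjusted p = 0.163). Ccn2 was 0.47 higher in the mean (SE 0.149, adjusted p = 0.475), and CXCR5-/- AB replicate 4, at 10.83, lay among the WT AB arrays. Among all genes, 9 (0.0451%) passed in this comparison (21 with replicate number as a block, again with 0 CCN genes), while 1.63% of genes were higher on all arrays labelled CXCR5-/-. The exact two-sided permutation test gave p = 0.0286 for Ccn1 and for Ccn5, the smallest that 4 against 4 arrays allow, and 0.114 for Ccn2. CXCR5-/- AB replicate 4 was the lowest of its group for Ccn1, Ccn2 and Ccn4. It also had the highest mean of the 8 atrial markers among the AB arrays (7.54), and the part of this in its CCN values was not tested. Without CXCR5-/- AB replicate 4, Ccn1 (0.71, adjusted p = 0.0431) and Ccn2 (0.65, adjusted p = 0.0442) passed, in a fit where 34 of all genes passed in place of 9. These were the lowest adjusted p values with any array left out. Over all such limma fits, Ccn1 differed by 0.52 to 0.71 (adjusted p up to 0.444) and Ccn2 by 0.39 to 0.65 (adjusted p up to 0.902). With all arrays, Ccn3 differed by 0.11 (95% interval -0.30 to 0.52) and Ccn4 by 0.04 (95% interval -0.19 to 0.27).

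After Sham no CCN gene separated the genotypes, where 8 of all genes (0.0401%) passed. Ccn1 was lower by 0.26 in the mean of CXCR5-/- mice (95% interval -0.59 to 0.07), with overlapping groups, and its mean was higher by 0.04 without the 3 arrays with high Myl7. Ccn2 (0.08), Ccn4 (0.21) and Ccn5 (0.06) had intervals that held 0. Ccn3 differed by 0.49 (unadjusted p = 0.0442, adjusted p = 0.9999), again from CXCR5-/- Sham replicates 1 and 2, and without the 3 arrays with high Myl7 it was -0.31. The exact permutation test cannot go below p = 0.10 with 3 against 3 arrays. As the comparisons above share arrays, the WT AB and CXCR5-/- AB values enter both the responses and the comparison after AB, and these are not separate evidence.

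**Figure D3:**
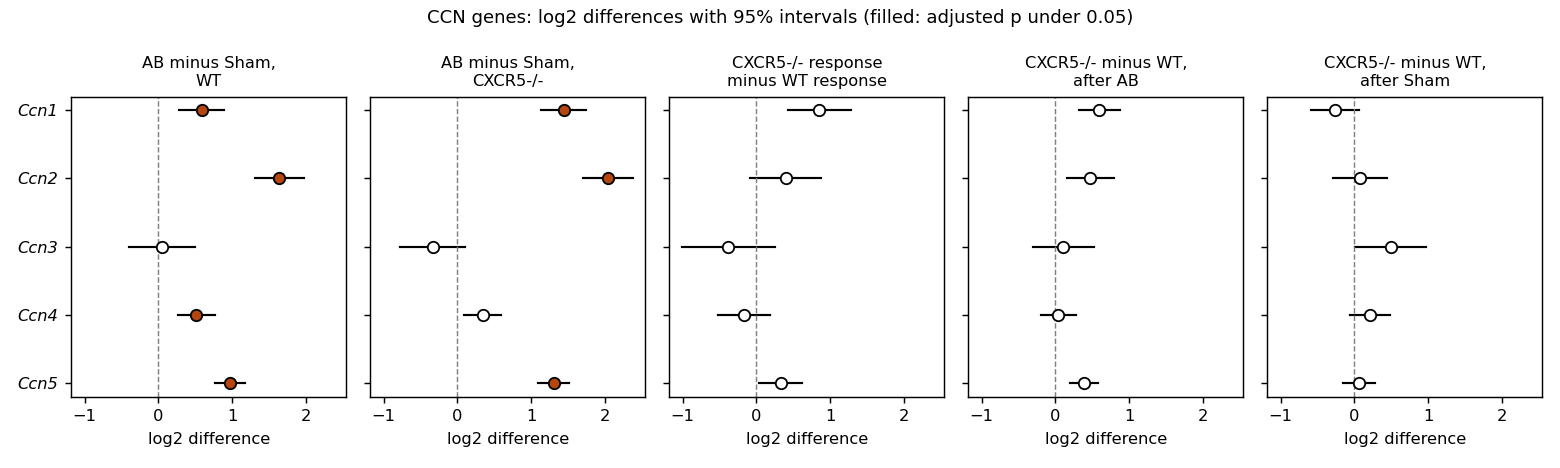
Log2 differences of the 5 CCN genes (x axis, points) with 95% intervals (lines) in the 5 comparisons of the limma fit, with filled points for an adjusted p under 0.05. The filled points are 4 genes for AB in WT and 3 for AB in CXCR5-/- hearts, and the intervals of Ccn1 and Ccn5 lie above 0 in the difference of responses and after AB.

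Over the 14 arrays, Ccn2 and Ccn5 varied together most closely of the family pairs (Pearson r = 0.969), followed by Ccn1 with Ccn5 (0.924) and Ccn1 with Ccn2 (0.910). Ccn4 correlated with Ccn2 at 0.842, and Ccn3 with the other 4 genes at -0.25 to -0.09. These values are descriptions, as the arrays fall into Sham and AB groups. With the group means taken off, r was 0.22 to 0.41 among Ccn1, Ccn2, Ccn4 and Ccn5. Ccn3 then had the highest r of all family pairs with Ccn5 (0.50), followed by values of 0.31 with Ccn2, -0.18 with Ccn1 and -0.38 with Ccn4. Of all genes, the levels most like Ccn2 were those of the Wnt modulator Sfrp1 (r = 0.992), Tmem45a (0.991) and the integrin-like gene Itgbl1 (0.988). Those most like Ccn5 belonged to the collagen processing gene Pcolce (0.986), Ddah1 (0.985), which breaks down a nitric oxide synthase inhibitor, and Sparc (0.985), a matricellular collagen-binding protein. Ccn1 was most like the lipase Pla1a (0.966), the endoplasmic reticulum retention receptor Kdelr3 (0.963) and the malic enzyme Me2 (0.953), and Ccn4 most like Plekha4 (0.929), Ncoa7 (0.911) and Stx11 (0.909). Ccn3 was most like the integrin subunit Itga8 (0.895), which was also among its closest 3 genes with group means taken off (0.889).

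The lists of target genes of the pathways named above for Ccn1 and Ccn2 moved to different extents. Control of the CCN genes by these pathways was not measured. Of all genes, 5.10% passed as higher with AB and 4.22% as lower in WT hearts. In CXCR5-/- hearts these shares were 8.28% and 5.86%. Of 20 TGF-beta and SMAD target genes, 13 rose with AB in WT mice and 12 did in CXCR5-/- mice, with 0 lower (medians 0.62 and 0.67, against 0.01 and -0.01 for all genes). They included periostin (Postn), a matricellular protein, which rose by 2.89 and 2.85 in WT and CXCR5-/- hearts. Fibronectin (Fn1) rose by 1.53 and 1.70, and Pmepa1, an inhibitor of TGF-beta signalling, by 1.19 and 1.23. Among the listed genes that passed in neither genotype were Smad7 (-0.06 and 0.06), Smad6 (-0.05 and -0.26) and Id1 (0.09 and 0.07). The list shares Col1a1, Col1a2 and Col3a1 with the fibroblast markers below. It shares Acta2, Postn and Tagln with the smooth muscle and myofibroblast markers. Of 20 YAP and TEAD target genes, AB raised 6 and lowered 2 in WT, and raised 7 and lowered 0 in CXCR5-/- hearts (medians 0.14 and 0.14). Among these, the growth factor gene Tgfb2 rose by 1.19 and 1.67, the matrix gene Ccdc80 by 0.94 and 0.87, the membrane repair gene Myof by 0.85 and 0.99 and the stretch-responsive muscle gene Ankrd1 by 0.61 and 0.81. The 2 that fell in WT were F3 (-0.50) and Amotl2 (-0.43), which differed by -0.30 and -0.28 in CXCR5-/- hearts without passing. Amotl2 is also the gene counted as lowered among the YAP pathway components below. Tgfb2 (0.47, unadjusted p = 0.0329) and Igfbp3 (0.38, unadjusted p = 0.0314) had the smallest p of that list in the difference of responses, and neither passed.

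**Figure D4:**
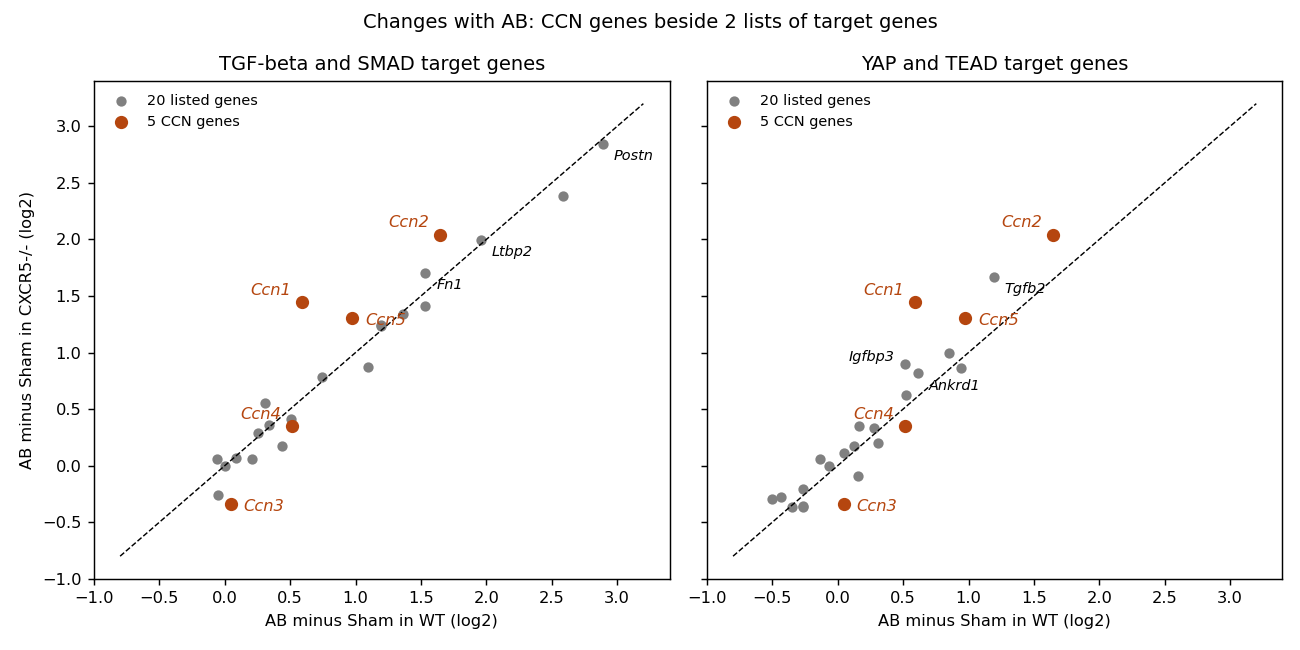
AB minus Sham differences (log2) in WT (x axis) and CXCR5-/- mice (y axis) for TGF-beta and SMAD target genes (left) and YAP and TEAD target genes (right), with the 5 CCN genes in orange and equal change as a dashed line. Ccn1 lies 0.86 above the line, Ccn2 0.40 and Ccn5 0.33, and no gene in either panel passed for the difference of responses.

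Of 27 immediate early genes, the class to which Ccn1 is often assigned, AB raised 3 in WT mice, 6 in CXCR5-/- mice, and lowered 0 (medians 0.22 and 0.14). Of all genes, 5.10% and 8.28% rose in WT and CXCR5-/- hearts. Myc rose by 0.97 and 1.16 and the stress factor gene Atf3 by 0.94 and 0.65. Gadd45b differed by 0.04 in WT and rose by 0.73 in CXCR5-/- hearts (difference of responses 0.69, unadjusted p = 0.00788, adjusted p = 0.9998). Fewer of the 27 genes passed in CXCR5-/- hearts without the 3 arrays with high Myl7. That fit holds 1 CXCR5-/- Sham array, so a loss of calls cannot be told apart from the loss of arrays. Of 21 components of the YAP pathway, AB raised 4 and lowered 1 in WT mice, against 7 and 0 in CXCR5-/- mice, where fewer passed in that smaller fit. They included the TEAD cofactor gene Vgll3 (0.93 and 1.31), Wwtr1, which encodes the YAP partner TAZ (0.49 and 0.47), and Amot (0.38 and 0.59), which encodes a protein that binds YAP.

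On the receiving side, AB raised 6 of 19 CCN receptors and binding partners in each genotype and lowered 0 (medians 0.21 and 0.26). The share of all genes that rose was 5.10% in WT and 8.28% in CXCR5-/- hearts. Biglycan (Bgn), a small proteoglycan, rose by 0.86 and 1.04, and the leukocyte integrin subunit Itgb2 by 0.55 and 0.47. Decorin (Dcn), a proteoglycan that binds Ccn2, differed by 0.29 in WT (adjusted p = 0.189) and rose by 0.56 in CXCR5-/- hearts. The integrin subunit Itgb5 followed the same order (0.24, adjusted p = 0.269, and 0.53, passed), whereas Itgb3 rose in WT (0.42) and differed by 0.10 in CXCR5-/- hearts (adjusted p = 0.681). Their differences of response did not pass. Without the 3 arrays with high Myl7 the counts were lower in both genotypes, in a fit with fewer arrays and 1 CXCR5-/- Sham array.

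Markers of several cell types were followed too, and some of these lists moved with AB. Which cells made the CCN RNA was not measured. Of 20 fibroblast markers, 12 were raised by AB in WT mice and 15 in CXCR5-/- mice (medians 0.57 and 0.63). Fewer of them passed in CXCR5-/- mice without the 3 arrays with high Myl7, in a fit with 1 CXCR5-/- Sham array. The mean level of the list was 8.17 to 8.27 in WT Sham, 8.67 to 9.15 in WT AB, 8.09 to 8.31 in CXCR5-/- Sham and 8.92 to 9.17 in CXCR5-/- AB, with no overlap of AB and Sham. Of 12 macrophage markers, 6 were raised in WT mice and 9 in CXCR5-/- mice (medians 0.47 and 0.78), and their mean level was 7.06 to 7.16 in WT Sham, 7.42 to 7.58 in WT AB, 6.86 to 6.9995 in CXCR5-/- Sham and 7.46 to 7.78 in CXCR5-/- AB, with no overlap of AB and Sham. Fewer genes of the other lists rose, where 5.10% and 8.28% of all genes rose in WT and CXCR5-/- hearts. These were 1 and 3 of 12 smooth muscle and myofibroblast markers and 1 and 2 of 14 endothelial markers. The smooth muscle and myofibroblast marker that passed in WT was Postn, also a listed TGF-beta and SMAD target. Myh11 of that list differed by -0.31 and -0.44 without passing. Of 8 epicardial and mesothelial markers 2 and 1 rose, and 0 of 7 adipocyte and 0 of 5 red blood cell markers passed. Of 15 cardiomyocyte markers 1 and 3 fell, and of 8 atrial markers 1 and 2 fell, where 4.22% and 5.86% of all genes fell in WT and CXCR5-/- hearts. The part of these shifts in the CCN values was not tested.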

How the data were processed

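Total RNA of the left ventricle (extracted with an RNeasy kit per the labels and with the SV total RNA system per the paper) was hybridised to 14 arrays. The log2 values of each probe set were used as deposited (0.742 to 13.5), after background correction, normalization and summary by robust multi-array average (RMA), which the authors had run. Its version and settings, and the build of the array annotation, are not given in the sources used here. Of 34760 probe sets, 21640 had 1 gene symbol, 1321 had several and 11799 were not listed, and symbols were updated through the RefSeq table of GRCm38.p6 (21553 matched). Where a gene had more than 1 probe set, as 954 of 19937 did, the one with the highest mean stood for it. Log2 differences of dim probe sets tend to understate changes, and the small number of arrays limits the precision. No pair of arrays shared more than 47 values.

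Groups came from the sample labels, and replicates are separate mice. All comparisons were contrasts of group means made with the lmFit and eBayes functions of limma 3.58.1 under R 4.3.3 (10 residual and 7.13 prior degrees of freedom, Benjamini-Hochberg over all genes, threshold 0.05), with exact permutation tests of single genes beside them. The steps were tested on simulated data. The members and gene lists were chosen with earlier results of these data known, so the lists are described by counts and medians and were not tested as sets. Besides the CCN genes, Cxcr5 and Myl7, the text names the 3 genes most correlated with each member. From each list it draws on up to 4 genes with the smallest p that passed with AB. It also draws on 2 with the smallest p in the difference of responses, and it gives only some of these. Some listed genes that fell or did not pass are named outside this rule, among them Smad7, Smad6, Id1, F3, Amotl2 and Myh11.

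Replicate numbers are shared between groups. In all 4 pairs of the AB groups, same-numbered arrays shared part of their deviation from the group mean (r 0.125 to 0.220 across genes). Differently numbered AB pairs ranged from -0.417 to 0.456, so that some were more alike than any same-numbered pair. Between any other 2 groups at least 1 same-numbered pair had r under 0.1. Nothing in the labels gives the numbers a meaning. The block on replicate number was an alternative, as were other variance models, array weights, leaving out genes under the 30th percentile, renewed quantile normalization or median centring, fits restricted to the groups compared, other handling of probe sets, significance analysis of microarrays with all permutations, Myl7 as a covariate, the 3 arrays with high Myl7 left out, and each array left out in turn.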

Additional observations from a re-analysis of the deposited data

Results flagged for a closer look

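Ccn5 in the CXCR5-/- AB group was singled out because 1 array stood apart from the others of its group. Replicate 1 lay at 8.63 and the other 3 arrays at 8.71 to 8.72, so that the gap to the nearest array made up 0.871 of the group's range, above Dixon's 95% critical value for 4 arrays. The whole range was below 0.1 log2 units, and the mean of this group (8.69) lay 1.31 above that of its Sham group. Chance alone marks about 1 in 20 groups of this size, and 10 were examined (5 genes in both AB groups).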

How the results depend on the processing

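The number of CCN genes that passed for AB in WT hearts was 4 with each alternative except leaving out single arrays, where it ranged from 2 to 4 and was lowest without WT Sham replicate 2. Between genotypes after AB it was 0, except for 0 to 2 with single arrays left out (2 without CXCR5-/- AB replicate 4) and 2 (Ccn1 and Ccn5) by the unadjusted exact permutation test. For AB in CXCR5-/- hearts it was 3 or 4, the latter where Ccn3 passed without CXCR5-/- Sham replicate 3 or where Ccn4 passed, which happened with array weights (adjusted p = 0.0248), without dim genes (0.0498), without WT Sham replicate 1 (0.0483), without CXCR5-/- AB replicate 4 (0.0432), with significance analysis of microarrays and with replicate number as a block (4 genes, Ccn4 adjusted p = 0.0452). The block changed no other call of a CCN gene, and the count between genotypes after AB was 0 with this pairing. The difference of responses and the comparison after Sham kept a count of 0 in all fits. Some directions turned, all of them of differences that had not passed, and the cause was not tested. Ccn3 turned with array weights to -0.10 (AB in WT), 0.0757 (AB in CXCR5-/-), 0.18 in the difference of responses and -0.0485 after Sham, and without the 3 arrays with high Myl7 to -0.0336, 0.38, 0.42 and -0.31. For AB in WT it ranged from -0.0567 (without WT AB replicate 3) to 0.17 with single arrays left out, and was -0.0336 without WT Sham replicate 1. After AB, Ccn4 became -0.000759, -0.00350 and -0.0190 without CXCR5-/- AB replicates 2 and 3 and WT AB replicate 2 (up to 0.0954 without others). After Sham, Ccn2 became -0.13 with array weights, -0.14 without the 3 arrays and -0.0549 without CXCR5-/- Sham replicate 1 (up to 0.18 without others), Ccn1 0.0415 without the 3 arrays and Ccn5 -0.0136 with Myl7 as a covariate. Renewed normalization and centring turned no member. Over all genes, 1858 passed for AB in WT and 2818 for AB in CXCR5-/- hearts, against 3408 and 4770 with array weights, 1629 and 844 without the 3 arrays, and 1176 and 2032 with all probe sets in the adjustment. Array weights raised the YAP and TEAD targets that passed in CXCR5-/- hearts from 7 to 12, the receptors and partners from 6 to 10 and, in WT, the immediate early genes from 3 to 7. Without the 3 arrays, fewer fibroblast markers and YAP pathway components passed in CXCR5-/- hearts. Calls over all genes fell in that fit as well, which holds 1 CXCR5-/- Sham array.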
